A study of Sus scrofa with 9 samples.

Results

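Cytokines and chemokines act on a cell only where their receptors are made. The 28 genes described here encode receptors for interleukins, interferons, tumour necrosis factor (TNF) family ligands and chemokines. They were chosen from the genes in the deposited table whose pig symbol begins with IL, digits and R, or with TNFRSF, IFNAR, IFNGR, CXCR or CCR, leaving out CCR1 and CCR7, and are 28 of 3890 genes with a symbol. The position with the longest span stands for each gene. There are 14 interleukin, 7 chemokine, 4 TNF and 3 interferon receptor genes. Of the 28, 12 reached a mean of 0.5 RPKM over the 9 libraries and were tested, 12 were weaker and 4 held no read in any library. RPKM is a read count scaled to the length of the annotated span and to the size of the library. A comparison of levels between genes therefore depends on the span listed for each.

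Nascent RNA was measured by GRO-seq, in which nuclei restart their engaged polymerases in a run-on reaction with a labelled nucleotide, so that reads mark ongoing transcription and not stored mRNA. The tissue came from 3 female farm pigs, 24 hours after a coil placed through a catheter had blocked the distal part of the LAD, the coronary artery of the front wall. Nuclei were taken from cells freed with collagenase, so cells that this step does not release are missing. Each pig gave a library labelled healthy, 1 labelled border zone and 1 labelled ischemic, and no library is from a pig without a coil, so the healthy samples are from infarcted animals too. The labels give neither the age of the pigs nor the place in the heart from which the healthy sample came.

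Cytokine receptors signal through partner proteins. Most interleukin and interferon receptor chains have no enzyme of their own and work through bound JAK kinases and STAT factors, and many pair a private chain with a shared one. TNF receptors recruit adaptors that lead to NF-kB or to cell death, and chemokine receptors are G protein coupled receptors that steer migrating leukocytes. Several receptors are decoys, which bind a ligand without passing on a signal. In the infarcted heart, chemokine receptors are best known from the leukocytes that enter the tissue, while TNFRSF1A and the interferon gamma receptor are made by many cell types.

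The library totals, inferred from the deposited RPKM values, were 883656 to 7005976 reads, and the ischemic ones, with at most 2134087, were the lowest. The median member among the 12 tested held 30.5, 24.5 and 55 reads in healthy, 92, 94 and 62.5 in border zone and 66.5, 15.5 and 39.5 in ischemic replicates 1 to 3, where a replicate number is a pig. All 548 table positions on unplaced scaffolds held 0 reads in every library, up to a span of 188624 bp, against 88.9% of 4334 positions on chromosomes with a read. As a check of the tissue, 8 of the 10 heart muscle genes looked up are in the table, with summed levels of 326 to 560 RPKM (healthy), 155 to 258 (border zone) and 64.8 to 210 (ischemic).

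Several receptor genes were transcribed more in damaged myocardium, among them 3 of the 4 tested chemokine receptors. Against healthy myocardium, 6 of the 12 tested members rose in ischemic samples and 0 fell at an adjusted p under 0.05 (limma, Benjamini-Hochberg over all 2384 positions tested), while 18.5% of all tested positions rose and 9.1% fell (27.6% in either direction). The members that rose were CXCR4, CCR2, IL2RG, CCRL2, TNFRSF1A and IFNGR1. In border zone against healthy, 4 of 12 rose and 0 fell, namely CCR2, IL2RG, CXCR4 and CCRL2, beside 5.79% of all positions that rose and 0.21% that fell (6% in either direction). The median log2 fold change over the 12 was 1.10 for ischemic and 1.04 for border zone, against 0.21 and 0.22 over all positions, and the comparisons share the healthy libraries. CCR2, IL2RG, CCRL2 and no other rising member averaged under 0.5 RPKM in healthy tissue, so they were tested through the level in the damaged zones, and the counts over tested members carry that selection. The border zone count was 0 without healthy replicate 2, border zone replicate 1 or border zone replicate 3, 1 without healthy replicate 1 and 2 without healthy replicate 3.

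**Figure D1:**
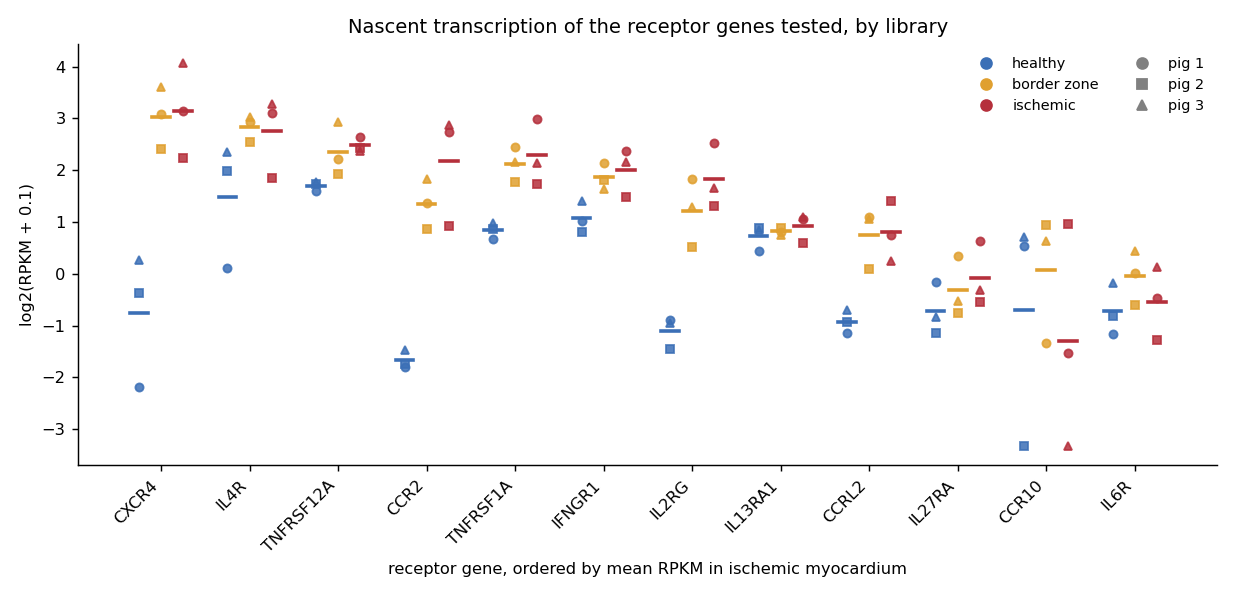
Each point is 1 library, as log2(RPKM + 0.1), for the 12 receptor genes tested, with the colour giving the zone, the shape the pig and the bar the mean of 3. For CXCR4, CCR2, IL2RG, CCRL2, TNFRSF1A and IFNGR1 every ischemic and every border zone library lies above every healthy library. The same holds for TNFRSF12A, which passed the threshold in neither zone. Of all tested positions, 28.4% were higher without overlap in ischemic and 25.7% in border zone tissue.

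Leukocyte genes were higher in the same libraries. In bulk tissue, more cells of a type and more transcription per cell cannot be told apart. Of 6 macrophage and monocyte markers in the table, 3 were tested and 3 rose in ischemic samples. Their sums were 0.84 to 1.98 RPKM (healthy), 6.11 to 13.4 (border zone) and 16.4 to 21.9 (ischemic), and CD163, on an unplaced scaffold, was at 0 throughout. Of 4 neutrophil markers 3 rose, with sums of 0.0813 to 0.323, 5.28 to 10.8 and 14.1 to 30.2 RPKM, and S100A8, S100A9 and S100A12 were at 0 in all healthy libraries. ITGB2, the only general leukocyte marker of the list in the table, rose in ischemic tissue, with 0.137 to 0.405, 0.928 to 1.88 and 0.529 to 2.01 RPKM. The neutrophil markers and ITGB2 averaged under 0.5 RPKM in healthy tissue. They were tested through their level in the damaged zones, and their counts carry that selection. For T and NK cells 9 markers are in the table, 3 were tested and 0 passed in limma, with sums of 1.51 to 4.04, 3.37 to 6.70 and 3.78 to 7.56 RPKM. None of 3 B cell markers reached the filter, with sums of 0 to 0.343, 0.259 to 2.59 and 0.526 to 1.39 RPKM, and CD79B was at 0 in healthy libraries. Of 8 heart muscle genes 6 fell in ischemic tissue. Endothelial PECAM1 and VWF together came to 3.02 to 3.88, 3.53 to 4.47 and 5.49 to 6.52 RPKM, and 1 of them rose in ischemic tissue. Of 5 fibroblast genes 2 rose there, with sums of 8.46 to 11.6, 10.4 to 12.7 and 12.2 to 16.7 RPKM. In border zone against healthy, 2 macrophage and 2 neutrophil markers rose, and 0 markers of the other cell types, heart muscle included, passed in either direction by limma. Beside these counts, 18.5% of all tested positions rose and 9.1% fell in ischemic tissue, and 5.79% rose and 0.21% fell in border zone. The part of these cell types in the receptor results was not tested.

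CXCR4 is the receptor of the chemokine CXCL12 (NM_213773, susScr3 chromosome 15 from 18125415 to 18128469, plus strand). Its fitted change in ischemic tissue was close in size to that of CCR2. Healthy libraries of pigs 1 to 3 held 0.12, 0.669 and 1.10 RPKM, border zone libraries 8.39, 5.19 and 12.1, and ischemic libraries 8.75, 4.59 and 16.7. Every damaged sample was above every healthy one, and border zone and ischemic values overlapped. The fitted change was 15.1-fold in ischemic tissue (log2 fold change 3.91 ± 0.69, ± SE, n = 3 each, adjusted p = 0.00564 by limma) and 13.9-fold in border zone (3.80 ± 0.69, adjusted p = 0.0205). The healthy library of pig 1 rests on 1 read and the other 8 on 7 to 111 reads. Without that library, healthy replicate 1, the changes were 9.22-fold in ischemic (adjusted p = 0.0122) and 8.51-fold in border zone tissue (adjusted p = 0.0417). Leaving out healthy replicate 2 (adjusted p = 0.0622), border zone replicate 1 (0.093) or border zone replicate 3 (0.103) ended the border zone call.

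CCR2, the receptor for CCL2 that draws monocytes into tissue (NM_001001619, chromosome 13 from 32532565 to 32538394, plus strand), was close to silent in healthy libraries, at 0.189, 0.2 and 0.263 RPKM from 3, 4 and 10 reads. Border zone libraries held 2.46, 1.71 and 3.45 RPKM and ischemic libraries 6.59, 1.80 and 7.18. The ischemic library of pig 2 was at the level of the border zone, and those of pigs 1 and 3 were above all border zone libraries. CCR2 rose 14.3-fold in ischemic tissue (3.84 ± 0.50, adjusted p = 0.00192) and 8.07-fold in border zone (3.01 ± 0.50, adjusted p = 0.0145). Without ischemic replicate 2 the ischemic change was 22.1-fold. In border zone CCR2 no longer passed when healthy replicate 1 (adjusted p = 0.0535), healthy replicate 2 (0.0622), border zone replicate 1 (0.068) or border zone replicate 3 (0.0732) was left out.

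CCRL2, an atypical receptor that binds chemerin (NM_001001617, chromosome 13 from 32566384 to 32568453, plus strand), held 0.354, 0.423 and 0.518 RPKM in healthy, 2.04, 0.966 and 1.99 in border zone and 1.59, 2.54 and 1.09 in ischemic libraries. All damaged samples were above the healthy ones, without an order between border zone and ischemic. Its span is 2069 bp, and the values rest on 2 to 15 reads per library. CCRL2 rose 3.31-fold in ischemic tissue (1.73 ± 0.37, adjusted p = 0.0131, and 0.0628 by limma-voom) and 3.19-fold in border zone (1.67 ± 0.37, adjusted p = 0.0397). The border zone call was lost with pig as a block (adjusted p = 0.067), by limma-voom (0.141) and with libraries scaled to the same median (0.0885). It was also lost with quantile normalization (0.106), a pseudocount of 0.5 (0.0634) and no filter (0.0604). Leaving out any of healthy replicates 1 to 3, border zone replicates 1 and 3 and ischemic replicate 1 ended it too (0.0586 to 0.165).

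CCR10, a receptor of skin and mucosal homing (NM_001044563, chromosome 12 from 20376688 to 20378579, minus strand), did not separate the zones. Its values were 1.36, 0 and 1.54 RPKM in healthy, 0.298, 1.81 and 1.45 in border zone and 0.248, 1.85 and 0 in ischemic libraries, on 0 to 24 reads each. The log2 fold change was -0.60 ± 1.39 for ischemic (adjusted p = 0.779) and 0.77 ± 1.39 for border zone against healthy (adjusted p = 0.812). The ischemic value turned positive by limma-voom (0.012) and without healthy replicate 1 (0.012), healthy replicate 3 (0.097) or ischemic replicate 3 (0.41), and the border zone value turned to -0.55 without healthy replicate 2.

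Of the 7 chemokine receptor members, 5 lie in 1 stretch of chromosome 13 of 438 kb, in the order CCR9, CXCR6, CCR3, CCR2 and CCRL2, all on the plus strand. Transcription differed along it. CCR2 and CCRL2 lie at its end, 28 kb apart, and both rose in ischemic tissue. CCR9, a gut homing receptor of lymphocytes, had 5, 9 and 3 reads over the healthy, border zone and ischemic libraries, and CXCR6, the receptor of CXCL16, had 7, 13 and 3. CCR3, the eotaxin receptor of eosinophils, has a span of 101852 bp in the table and held 38, 152 and 61 reads. Scaled to the library totals, ischemic reads were 4.9 times healthy ones for CCR3 (exact 95% interval 3.21 to 7.55, counting error only). They were 1.83 times for CCR9 (0.284 to 9.41) and 1.31 times for CXCR6 (0.218 to 5.73). In border zone CCR3 reads were 3.98 times healthy ones (2.78 to 5.84). CCR1, which is no member, lies between CXCR6 and CCR3 and averaged 0.0538, 2.60 and 7.06 RPKM in healthy, border zone and ischemic libraries. XCR1, no member either, has a span that overlaps nearly all of CCR1 and averaged 0.0452, 0.912 and 1.78 RPKM. FYCO1, a gene of vesicle transport in the same stretch, went the other way, with 2.16 to 2.64 RPKM in healthy and 0.788 to 1.02 RPKM in ischemic libraries. Chemokine receptor genes resemble each other in sequence, and no source used here says how reads with several positions were counted, so a read of one gene may be counted in another.

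**Figure D2:**
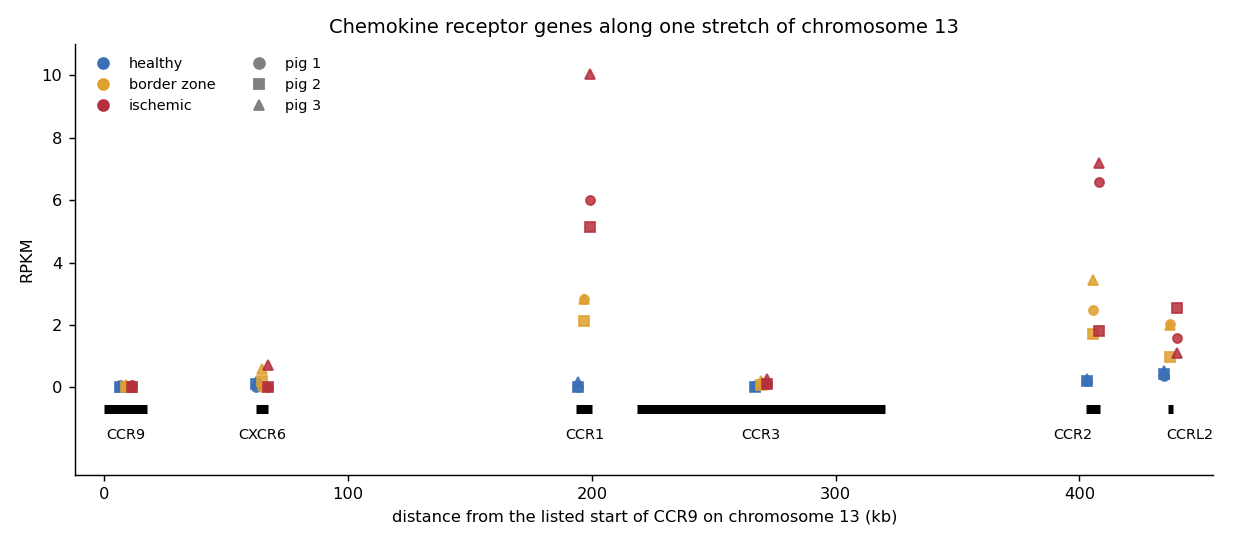
RPKM of 9 libraries for the chemokine receptor genes along the chromosome 13 stretch, with the distance in kb from the listed start of CCR9 on the x axis and black bars for the annotated spans. CCR2 and CCRL2 at the right end and CCR1 near the middle are high in ischemic libraries, while CCR9, CXCR6 and CCR3 stay under 1 RPKM in every library. XCR1 is not drawn.

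Of the interleukin receptors 5 were tested. IL2RG, the common gamma chain shared by the receptors of several interleukins including IL2, IL4 and IL7 (NM_214083, chromosome X from 64674048 to 64677372, minus strand), was the only 1 of them that rose. Healthy libraries held 0.441, 0.263 and 0.415 RPKM, border zone libraries 3.47, 1.33 and 2.34, and ischemic libraries 5.64, 2.37 and 3.06. In each pig the order was healthy, border zone, ischemic from low to high. IL2RG rose 7.63-fold in ischemic tissue (2.93 ± 0.42, adjusted p = 0.0025) and 4.98-fold in border zone (2.32 ± 0.42, adjusted p = 0.0191). The border zone call was lost without healthy replicates 1 to 3 (adjusted p = 0.0526, 0.0826 and 0.0559) or border zone replicates 1 and 3 (0.0846 and 0.0875).

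IL4R, the alpha chain that binds IL4 and, with IL13RA1, IL13 (NM_214340, chromosome 3 from 19847322 to 19869326, minus strand), had the highest mean of the 12 in healthy tissue. Its healthy values spread widely, with 0.982, 3.85 and 5.02 RPKM from 59, 290 and 721 reads. Border zone libraries held 7.49, 5.73 and 8.04 RPKM, all above the healthy ones, and ischemic libraries 8.52, 3.51 and 9.67, of which that of pig 2 was under its own healthy value. The log2 fold change was 1.27 ± 0.61 in ischemic (adjusted p = 0.156) and 1.35 ± 0.61 in border zone (adjusted p = 0.245), neither past the threshold. Without healthy replicate 1 these values were 0.58 and 0.66.

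IL13RA1, the partner of IL4R in the IL13 receptor (NM_214341, chromosome X from 114333596 to 114386429, minus strand), held 1.25, 1.75 and 1.70 RPKM in healthy, 1.66, 1.75 and 1.59 in border zone and 2.00, 1.41 and 2.03 in ischemic libraries. The zones overlapped throughout, on 85 to 648 reads per library. Its log2 fold change of 0.20 ± 0.22 in ischemic tissue (adjusted p = 0.533) turned to -0.016 with libraries scaled to the same median and to -0.055 with quantile normalization. IL13RA1 had the smallest standard error of the 12.

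IL6R, the IL6 binding chain (NM_214403, chromosome 4 from 104202230 to 104250108, minus strand), held 0.344, 0.469 and 0.78 RPKM in healthy, 0.918, 0.557 and 1.25 in border zone and 0.626, 0.311 and 0.993 in ischemic libraries. Border zone was above ischemic in 3 of 3 pigs, but the groups overlapped (-0.49 ± 0.45 for ischemic against border zone, adjusted p = 0.659). Against healthy, IL6R had 0.18 ± 0.45 in ischemic tissue (adjusted p = 0.793, and -0.029 with libraries scaled to the same median) and 0.67 ± 0.45 in border zone (adjusted p = 0.451). The table lists a further pair of IL6R positions inside this span on the plus strand, of 2103 and 84 bp, and the shorter held 4 reads, all in border zone libraries. IL6ST, the signalling chain that IL6R needs, had 0.021 in ischemic against healthy tissue (adjusted p = 0.95).

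IL27RA, a chain of the IL27 receptor (NM_001243884, chromosome 2 from 65401420 to 65423805, minus strand), varied more between pigs than between zones. Pig 1 held 0.802, 1.17 and 1.44 RPKM in healthy, border zone and ischemic tissue, pig 2 held 0.352, 0.491 and 0.587, and pig 3 held 0.458, 0.592 and 0.708. The order healthy, border zone, ischemic was the same in 3 of 3 pigs, with log2 differences of ischemic from healthy of 0.78, 0.60 and 0.53. It did not pass without the pig in the model (0.64 ± 0.44, adjusted p = 0.319) or with pig as a block (adjusted p = 0.058).

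IFNGR1, the ligand binding chain of the interferon gamma receptor (NM_001177907, chromosome 1 from 30388405 to 30409354, plus strand), was the only interferon receptor gene with reads. Healthy libraries held 1.94, 1.64 and 2.54 RPKM, border zone libraries 4.30, 3.43 and 3.01, and ischemic libraries 5.10, 2.68 and 4.38, on 64 to 503 reads each. Both damaged zones were above all healthy libraries, by little in ischemic pig 2. The 1.90-fold rise in ischemic tissue was narrowly past the threshold (0.93 ± 0.30, adjusted p = 0.0484, and 0.0373 with pig as a block). It was lost with a pseudocount of 0.5 (adjusted p = 0.0506), without a filter (0.0676), with libraries scaled to the same median (0.0692), with quantile normalization (0.105), and without any 1 library other than ischemic replicate 2 (0.06 to 0.15). In border zone IFNGR1 had 0.79 ± 0.30 (adjusted p = 0.178).

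TNFRSF1A, the widely expressed receptor of TNF with a death domain (NM_213969, chromosome 5 from 66780726 to 66793255, plus strand), held 1.49, 1.72 and 1.87 RPKM in healthy, 5.35, 3.32 and 4.38 in border zone and 7.89, 3.22 and 4.34 in ischemic libraries. Its healthy values were close together and under all others, and pig 1 was highest in both damaged zones. TNFRSF1A rose 2.74-fold in ischemic tissue (1.45 ± 0.34, adjusted p = 0.0169), a call lost without healthy replicate 2 (0.052). In border zone it had 1.29 ± 0.34 (adjusted p = 0.068), and passed by limma-voom (0.015) and without ischemic replicate 1 (0.0387) or ischemic replicate 2 (0.0438). The positions tested stayed the same when a library was left out, so these ischemic libraries act here through the estimate of the spread.

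TNFRSF12A, the receptor Fn14 of the ligand TWEAK (NM_001142839, chromosome 3 from 40531686 to 40533680, plus strand), was already transcribed in healthy tissue at 2.94, 3.22 and 3.30 RPKM. Border zone libraries held 4.52, 3.72 and 7.56 RPKM and ischemic libraries 6.11, 5.27 and 5.11, all above the healthy ones. The log2 fold change of 0.78 ± 0.28 in ischemic tissue missed the threshold (adjusted p = 0.0669, and 0.031 without border zone replicate 3), as did 0.66 ± 0.28 in border zone (adjusted p = 0.213).

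**Figure D3:**
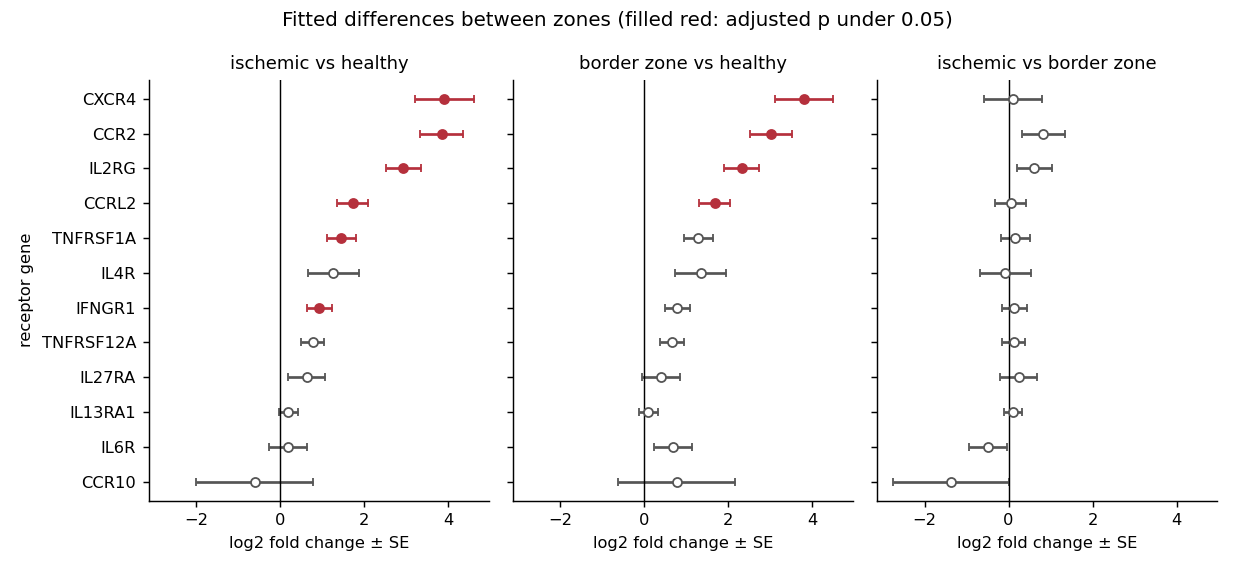
Fitted log2 fold change with its standard error for the 12 tested receptor genes in 3 comparisons, with filled red points past an adjusted p of 0.05. In ischemic against healthy 6 points are red, in border zone against healthy 4, and in ischemic against border zone 0.

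No difference between border zone and ischemic tissue passed the threshold in these genes. None of the 12 members passed for ischemic against border zone in limma, with 0 at an unadjusted p under 0.05 and 0 by limma-voom, and 1.13% of all positions passed (0.168% higher, 0.965% lower). The fitted log2 fold changes ran from -1.37 for CCR10 to 0.83 for CCR2, with standard errors of 0.22 to 1.39. CCR2 (0.83 ± 0.50, adjusted p = 0.48) and IL2RG (0.62 ± 0.42, adjusted p = 0.526) were higher in ischemic than in border zone tissue in 3 of 3 pigs. Without ischemic replicate 2 the CCR2 difference was 2.74-fold (adjusted p = 0.0608 by limma). Its adjusted p was at most 0.803 when 1 library was left out. For 0 of 12 members did the ischemic libraries lie apart from the border zone libraries, and 8.56% of all positions were higher and 11.5% lower in ischemic tissue without overlap. Against healthy tissue the same measure held for 7 of 12 members in ischemic and 8 of 12 in border zone tissue, all higher, beside 28.4% and 25.7% of all positions, while 14.9% and 6.71% of positions were lower without overlap and 0 members were. These counts include CCR2, IL2RG and CCRL2, which were tested through their level in the damaged zones, and carry that selection.

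The order of levels differed between zones. Ranks between genes rest on the listed spans, from 1891 bp for CCR10 to 52833 bp for IL13RA1. In healthy tissue IL4R (3.28 ± 2.08 RPKM, mean ± SD, n = 3) and TNFRSF12A (3.15 ± 0.19) led, with overlapping libraries. They were followed by IFNGR1 (2.04 ± 0.454), TNFRSF1A (1.69 ± 0.191) and IL13RA1 (1.57 ± 0.276), each overlapping the next, while the IFNGR1 libraries all lay under those of TNFRSF12A. CCR2 was last of 12. CXCR4 was at rank 7 there and at rank 1 in border zone (8.57 ± 3.47) and ischemic tissue (10.0 ± 6.14), where its libraries overlapped those of IL4R (7.23 ± 3.28). CCR2 was at rank 4 in ischemic tissue (5.19 ± 2.95), beside TNFRSF1A (5.15 ± 2.44), whose libraries overlap with it. IL13RA1 moved from rank 5 to rank 8 at nearly the same level. The libraries were not uniform within a zone: ischemic replicate 2 was the lowest of its group for 9 of 12 members, against 40.7% of all tested positions, and border zone replicate 2 for 9 of 12, against 35.4%, so pig 2 was mostly lowest in both damaged zones. In healthy tissue replicate 1 was lowest for 8 of 12 (29.4% of positions) and replicate 3 highest for 9 of 12 (30.2%). Ischemic replicate 2 also had the highest summed heart muscle markers of its group, 210 RPKM against 141 and 64.8, and its macrophage sum was the highest too, 21.9 RPKM against 16.4 and 18.6. It was the lowest of its group for the neutrophil sum (14.1 RPKM against 30.2 and 19.3), ITGB2 (0.529 against 2.01 and 1.67) and the T and NK cell sum (3.78 against 5.68 and 7.56). The part of this difference in the receptor values was not tested.

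**Figure D4:**
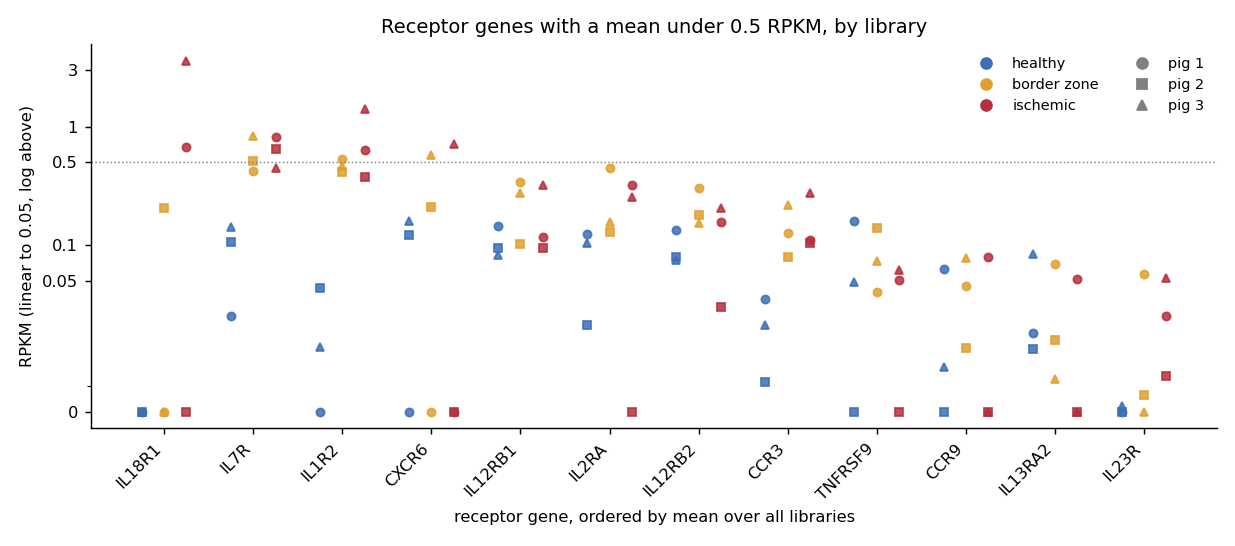
RPKM of 9 libraries for the 12 receptor genes with reads but a mean under 0.5 RPKM (dotted line), on an axis that is linear to 0.05 and logarithmic above. IL7R and IL1R2 show every damaged sample above every healthy one, as does CCR3, and IL18R1 rests on 3 libraries with reads.

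Of the 12 members under the filter, IL1R2 and IL7R stood out by their reads. IL1R2, a decoy that binds IL1 without passing on a signal (NM_001243363, chromosome 3 from 54901383 to 54919899, minus strand), held 0, 0.0473 and 0.0248 RPKM in healthy, 0.532, 0.416 and 0.469 in border zone and 0.633, 0.379 and 1.41 in ischemic libraries. Over each zone this was 6, 108 and 56 reads. Scaled to the inferred library totals, these were 28.5 times as many in ischemic as in healthy tissue (exact 95% interval 12.3 to 80.9, counting error only) and 17.9 times in border zone (7.97 to 49.9). The intervals take each read as an independent count. The table places 2 more pieces of the gene on the plus strand of the same region, and the piece of 13037 bp held 7, 125 and 49 reads over healthy, border zone and ischemic libraries. That piece averaged 0.648 RPKM over all libraries, and the other, of 217 bp, averaged 5.06 RPKM on 0, 6 and 13 reads. Both reached the filter, so IL1R2 is under it only because its longest piece stands for the gene. The 3 pieces thus lie on both strands of susScr3. IL7R, the IL7 receptor chain that pairs with IL2RG (NM_001146128, chromosome 16 from 22282677 to 22312681, plus strand), held 0.0366, 0.107 and 0.143 RPKM in healthy, 0.422, 0.514 and 0.838 in border zone and 0.812, 0.643 and 0.453 in ischemic libraries. Its reads, scaled to the library totals, were 6.25 times as high in ischemic (4.27 to 9.26) and 4.93 times in border zone tissue (3.52 to 7.04) as in healthy tissue. The IL7R span lies within that of SPEF2 on the same strand, which averaged 0.0923 RPKM. In a fit without the filter, IL1R2 and IL7R rose in both zones, with adjusted p = 0.00582 and 0.0109 in ischemic and 0.04 and 0.0416 in border zone tissue, where 11.2% and 2.41% of 3855 positions rose. For ischemic against border zone 0 of the 24 members with reads passed in that fit, and 0% of positions were higher.

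IL18R1, the binding chain of the IL18 receptor (NM_214098, chromosome 3 from 54285206 to 54288704, minus strand), had 0 reads in healthy libraries, 5 in border zone replicate 2, 5 in ischemic replicate 1 and 11 in ischemic replicate 3. Against a floor of 3 reads set for the healthy group the ischemic level was 16.3-fold, which leaves out counting error in the ischemic reads. The exact 95% lower limit of the ratio, for counting error only, was 11.8. Without ischemic replicate 3 these values were 6.46 and 3.55, and without healthy replicate 3 they were 7.9 and 5.71. In the fit without the filter IL18R1 did not pass (adjusted p = 0.156). CCR3 held 0.0115 to 0.0432 RPKM in healthy libraries, against 0.0799 to 0.22 for border zone and 0.103 to 0.278 for ischemic ones, without overlap of either damaged zone with healthy. Scaled to the library totals, CCR3 had 4.9 times (3.21 to 7.55) the reads of healthy tissue in ischemic and 3.98 times (2.78 to 5.84) in border zone tissue. It did not pass in that fit (adjusted p = 0.0884 and 0.245).

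The other members under the filter rested on fewer reads or smaller ratios. IL12RB1 and IL12RB2, the chains of the IL12 receptor, averaged 0.106 and 0.0963 RPKM in healthy, 0.24 and 0.213 in border zone and 0.178 and 0.135 in ischemic tissue. In border zone their reads, scaled to the library totals, were 2.02 times (1.33 to 3.12) and 2.37 times (1.79 to 3.15) those of healthy tissue. IL23R, which lies 57.9 kb from IL12RB2 on chromosome 6, had 1, 16 and 9 reads, and 13 of the 16 border zone reads came from pig 1. IL2RA, the high affinity chain for IL2, had 10, 25 and 8 reads, and TNFRSF9, a costimulatory receptor also named 4-1BB, 14, 24 and 3. IL13RA2, a decoy for IL13, had 26, 17 and 4 reads, 20 of the 26 in healthy replicate 3. The ischemic libraries were the smallest, so these reads do not compare the zones unscaled. Scaled to the library totals, ischemic reads were 27.5 times healthy ones for IL23R (3.8 to 1204, from 1 healthy read) and 2.44 times for IL2RA (0.837 to 6.87). For TNFRSF9 they were 0.654 times (0.12 to 2.34) and for IL13RA2 0.469 times (0.119 to 1.35). None of these 6 genes passed in the fit without the filter.

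IFNAR1 and IFNAR2, the chains of the type I interferon receptor, IL10RB, a shared chain of the IL10 receptor family, and TNFRSF1B, the TNF receptor of leukocytes and endothelium, were listed at 0 in all libraries. The table lists IFNAR1 in 9, IL10RB in 5 and IFNAR2 in 4 pieces, the longest of 241, 283 and 1077 bp, and TNFRSF1B in 1 span of 16039 bp. All lie on unplaced scaffolds, where no position of the table held a read, so their transcription was not measured here. Just inside the filter lay IL6R and IL27RA, with means of 0.694 and 0.734 RPKM, and just outside it IL18R1, IL7R and IL1R2, with 0.492, 0.441 and 0.434.

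Ligands of these receptors were looked up in the same table. Of 51 ligand genes listed, 43 are in the table and 14 were tested, of which 8 rose in ischemic tissue and 0 fell, with a median log2 fold change of 2.55, beside 18.5% of all positions that rose. Of these 8, 7 averaged under 0.5 RPKM in healthy tissue, as did 5 of the 6 in border zone, so they too were tested through their level in the damaged zones, and the counts and medians carry that selection. The named ligands are the 4 with the smallest adjusted p. IL1B and IL1A, the cytokines that IL1R2 binds, had 5.80 ± 0.39 (adjusted p = 0.000225) and 5.29 ± 0.43 (adjusted p = 0.000271), IL6 had 3.76 ± 0.55 (adjusted p = 0.00275) and CCL2, the ligand of CCR2, had 3.76 ± 0.62 (adjusted p = 0.00413). In border zone 6 of the 14 rose, with a median of 2.50, beside 5.79% of all positions. The counts were 5 without ischemic replicate 1 for ischemic tissue, and for border zone 2 or 3 without any of healthy replicates 1 to 3, border zone replicates 1 and 3 or ischemic replicates 1 and 3.

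Among other cytokine and chemokine receptor chains, 11 of 27 listed are in the table and 7 were tested, of which 2 rose and 1 fell in ischemic tissue (median log2 fold change 0.021), beside 18.5% of all positions that rose and 9.1% that fell. Both that rose averaged under 0.5 RPKM in healthy tissue. XCR1, the receptor of XCL1, rose (3.68 ± 0.35, adjusted p = 0.000526), but its listed span of 81240 bp overlaps nearly all of CCR1 on the same strand. XCR1 held 578 and CCR1 183 ischemic reads, and a read in the shared bases may be counted in both. CD40, a TNF receptor family member of antigen presenting cells, rose (1.39 ± 0.36, adjusted p = 0.0241), and GHR, the growth hormone receptor, fell (-1.89 ± 0.35, adjusted p = 0.00727). In border zone 1 of the 7 rose, XCR1.

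Downstream of the interleukin and interferon receptors, 17 of 22 JAK, STAT and SOCS genes are in the table and 12 were tested, of which 5 rose in ischemic tissue and 0 fell (median 0.56), beside 18.5% and 9.1% of all positions, whose median was 0.21. STAT3, the main factor of IL6 type cytokines, had 0.80 ± 0.18 (adjusted p = 0.0149), STAT6, the factor of IL4R, 1.49 ± 0.34 (adjusted p = 0.0159), TYK2 0.64 ± 0.18 (adjusted p = 0.0322) and JAK2 0.71 ± 0.21 (adjusted p = 0.0346). The count was 0 without healthy replicate 2, 2 without healthy replicate 1, healthy replicate 3 or ischemic replicate 3, and 3 without ischemic replicate 1. In border zone 0 of the 12 passed in limma and 1 by limma-voom.

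For the adaptors of the IL1 and TNF receptor families, 12 of 32 are in the table and 11 were tested, of which 6 rose in ischemic tissue and 0 fell (median 1.08), beside 18.5% and 9.1% of all positions. MYD88 and IRAK4, which are among the 6, averaged under 0.5 RPKM in healthy tissue. MYD88, the adaptor of IL1 and Toll-like receptors, had 2.86 ± 0.43 (adjusted p = 0.00305), TNFAIP3, an inhibitor of NF-kB signalling, 2.50 ± 0.48 (adjusted p = 0.00852), FADD, the adaptor of death receptors, 2.05 ± 0.46 (adjusted p = 0.015) and CFLAR, which blocks caspase 8 at these receptors, 1.08 ± 0.26 (adjusted p = 0.0192). In border zone TNFAIP3 and MYD88 rose. The ischemic count was 3 without ischemic replicate 1, and the border zone count was 0 without healthy replicates 1 or 3 or border zone replicates 1 or 3 and 1 without ischemic replicate 1.

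**Figure D5:**
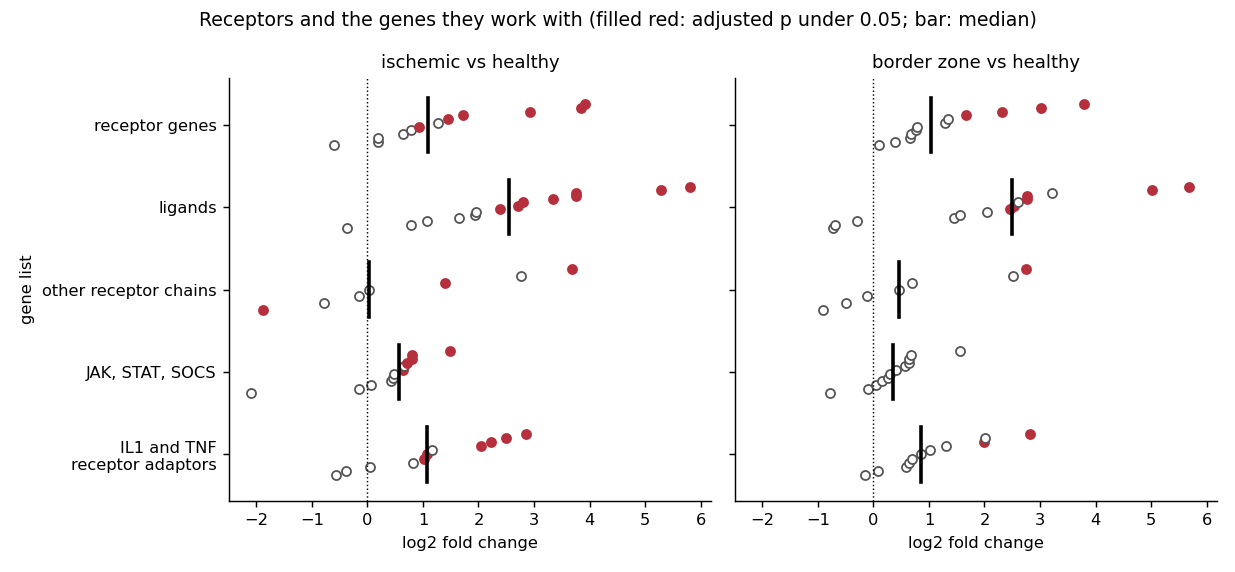
Log2 fold change of each tested gene against healthy tissue, for the 12 receptor genes and 4 lists of genes they work with, with filled red points past an adjusted p of 0.05 and a bar at each median. The medians are 2.55 and 2.50 for the ligands, of which 8 of 14 reached the filter with a healthy mean under 0.5 RPKM. For the receptor genes they are 1.10 and 1.04, and CCR2, IL2RG and CCRL2 reached the filter in the same way.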

How the data were processed

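Per the submitters' processing notes, the authors aligned reads to susScr3 with Bowtie; no source used here gives the version, counting program, strand setting or treatment of duplicates. The deposited values are RPKM over the annotated span, introns included, per the file headers. Library totals were inferred from the same RPKM values, as the totals that make reads whole. They are not counts of sequenced reads given by a source. With them, RPKM times span gave whole reads within 0.01 for 100% of nonzero values, a share that is no independent check of the totals. RefSeq accessions were matched to symbols in a Sscrofa11.1 table (4793 of 4882 positions), used for names only; coordinates are the table's own. The fit took positions averaging 0.5 RPKM or more as log2(RPKM + 0.1), in limma 3.58.1 (R 4.3.3; trend and robust eBayes), the 3 groups as terms, threshold 0.05, so folds of weak genes are understated. Intervals cover counting error only. The floor of 3 reads stands for a group without reads and covers no error in the other group. Counts from 1 to 30 were multiples of 3 in 32.8% to 53.2% of cases, so reads are not known to be independent molecules. The intervals take them as independent and may be too narrow.

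Pairing comes from the labelled animal number; deviations from the group means correlated at -0.0367 to 0.179 within a pig and -0.156 to 0.0816 between pigs. Members and lists were chosen with earlier results of these data known. Some genes are not reported here and stay out of the members, markers and counts, though all positions entered the fit. All tested members are named, the weak ones with their reads, and up to 4 genes per list past the threshold, by adjusted p. The fit was run on simulated data with independent reads and no difference between pigs, which checks the code and not the calls in these libraries. Python 3.11.15, pandas 2.3.3, scipy 1.17.1 and matplotlib 3.10.9 served for tables and figures. Alternatives were the pig block, pseudocounts of 0.5 and 0.02, filters, scalings, limma-voom, the highest position of a gene, and leaving out each library.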

Additional observations from a re-analysis of the deposited data

How the results depend on the processing

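Of the receptor results against healthy tissue, the 6 calls in ischemic tissue stayed 4 to 6 in number without 1 library and the 4 in border zone 0 to 5; for ischemic against border zone they stayed at 0, apart from 1 when the position with the highest mean RPKM stood for a gene, which is the 4-read piece of IL6R. With pig as a replicate block the counts were 6, 3 and 0, and CCRL2 in border zone was the only receptor call that changed. The lists (ligands, other chains, JAK to SOCS, adaptors) then gave 10, 3, 6 and 7 calls in ischemic and 8, 1, 0 and 3 in border zone tissue. Calls over all 2384 positions also rose with the block, from 659 to 752 in ischemic and from 143 to 205 in border zone tissue. Positions called in ischemic against healthy tissue numbered 346 with a filter of 2 RPKM and 362 to 698 without 1 library. In border zone they numbered 86 with a pseudocount of 0.5, 76 with a filter of 2 RPKM, 95 without a filter, 84 with libraries scaled to the same median, 85 with quantile normalization, 296 by limma-voom and 36 to 174 without 1 library. For ischemic against border zone they were 10, 3, 8, 5 and 92 (pseudocount of 0.5, no filter, median scaling, quantile normalization, limma-voom) and 0 to 39 without 1 library.

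Ligand calls in ischemic tissue were 3 with a filter of 2 RPKM and 5 to 9 without 1 library. In border zone they were 2, 3, 2 and 3 (pseudocount of 0.5, filter of 2 RPKM, median scaling, quantile normalization) and 2 to 5 without 1 library. Other receptor chains gave 0 with the 2 RPKM filter and 2 to 4 without 1 library in ischemic tissue, and 0, 0 and 2 (filter of 2 RPKM, quantile normalization, limma-voom) in border zone. JAK, STAT and SOCS genes gave 2, 3, 2 and 3 (filter of 2 RPKM, median scaling, quantile normalization, highest position) and 0 to 5 without 1 library in ischemic tissue, and 1 by limma-voom in border zone. Adaptors gave 3 to 6 without 1 library in ischemic tissue, and in border zone 1 each with the pseudocount of 0.5, no filter, median scaling and quantile normalization, and 0 to 2 without 1 library. Apart from the settings that test fewer genes or use fewer samples, the cause was not tested.

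The values that turned sign had not passed the test. In ischemic against healthy tissue CCR10 was 0.012 by limma-voom, IL13RA1 -0.016 and -0.055 and IL6R -0.029 and -0.017 with median scaling and quantile normalization. In border zone IL13RA1 was -0.16 and -0.16 with these scalings and IL27RA -0.37 with quantile normalization. For ischemic against border zone CXCR4 was -0.045 with quantile normalization.
Without 1 library, ranges that crossed 0 were -1.92 to 0.41 for CCR10 and -0.15 to 0.56 for IL6R in ischemic, and -0.55 to 1.47 for CCR10 and -0.048 to 0.18 for IL13RA1 in border zone tissue. For ischemic against border zone they were -0.28 to 0.33 for CCRL2, -0.35 to 0.57 for CXCR4, -0.047 to 0.41 for IFNGR1, -0.11 to 0.57 for IL27RA, -0.35 to 0.37 for IL4R, -0.092 to 0.41 for TNFRSF12A and -0.19 to 0.45 for TNFRSF1A. Depth limits CCRL2 and CCR10, which rest on 2 to 7 and 0 to 4 reads in the ischemic libraries.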
